A study of Rattus norvegicus with 6 samples.

Results

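The immediate early stress genes of the ileum were examined as 8 gene symbols, Fos, Fosl2, Jun, Junb, Egr1, Atf3, Klf6 and Ier3, of 28282 symbols in the single-nucleus count tables. The members were chosen by name, with earlier results of these data known, and all 8 were counted in every library. The samples were ilea of male Sprague-Dawley rats, wild type and 6 weeks old when obtained, from 3 rats with severe acute pancreatitis (SAP) and 3 sham-operated rats (CON). The rats were acclimatized before surgery. SAP was induced by infusing 3% sodium taurocholate, a bile salt, backwards into the pancreatic duct (0.1 mL per 100 g) and then clamping for 5 min, and CON rats had the laparotomy without the infusion. All rats were fasted with access to water and killed 24 h after surgery, and Peyer's patches were avoided when the ileum was cut. Each library came from the flash-frozen ileum of 1 rat, so 1 rat was 1 replicate, and the laparotomy and the fasting were shared by both groups. Taurocholate infusion is a chemical model of the disease and the tissue was sampled at a single time, so no time course of these genes could be drawn.

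Immediate early genes are switched on without new protein synthesis when a cell meets a growth factor, a cytokine or a stress. Fos and Fosl2 encode Fos family proteins, which pair with Jun family proteins such as Jun and Junb to form AP-1, a dimer that binds DNA and drives later genes. Egr1 and Klf6 encode zinc finger transcription factors, Atf3 a stress-responsive member of the ATF/CREB family that often represses, and Ier3 a small early response protein linked to ERK signalling and survival. In gut epithelium, these genes are known to respond to injury, bile acids and microbial products, and they are also known to respond to tissue handling.

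The 250 bases before the annotated start of a gene were taken from the RefSeq promoter table of the rat assembly GRCr8, which held 4 of the 8 members (Fosl2, Junb, Egr1 and Klf6). They are shown because serum response, cAMP response and EGR motifs in this window are the classical entry points of early gene induction. GRCr8 is a later assembly than mRatBN7.2, which the processing notes name for the counts, so no count was read by coordinate. Letters in capitals mark the motif match named after the sequences.
Fosl2, chr6:30039270-30039519, minus strand: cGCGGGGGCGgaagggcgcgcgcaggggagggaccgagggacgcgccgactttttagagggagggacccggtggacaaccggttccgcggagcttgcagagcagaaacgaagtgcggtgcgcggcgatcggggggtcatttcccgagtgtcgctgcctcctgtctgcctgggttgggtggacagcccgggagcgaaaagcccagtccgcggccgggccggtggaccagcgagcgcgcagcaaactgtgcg
Junb, chr19:40080876-40081125, plus strand: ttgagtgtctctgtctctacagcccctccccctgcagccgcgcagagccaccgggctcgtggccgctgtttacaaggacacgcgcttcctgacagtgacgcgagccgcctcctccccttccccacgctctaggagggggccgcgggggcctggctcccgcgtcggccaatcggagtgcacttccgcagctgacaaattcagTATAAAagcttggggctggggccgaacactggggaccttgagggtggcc
Klf6, chr17:69458479-69458728, minus strand: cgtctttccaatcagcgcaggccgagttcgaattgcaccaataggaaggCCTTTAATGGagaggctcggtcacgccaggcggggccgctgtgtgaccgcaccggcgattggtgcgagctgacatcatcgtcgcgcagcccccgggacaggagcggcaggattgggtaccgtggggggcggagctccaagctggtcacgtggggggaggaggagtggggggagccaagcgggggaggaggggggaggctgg
The capitals in Fosl2 mark an EGR motif (GCGNGGGCG, either strand) at -249 to -241 from the start. Those in Junb mark a TATA box (TATAAA) at -49 to -44, and a CRE core (TGACG), left in lower case, lay at -155 to -151. Those in Klf6 mark a CArG box, the site of serum response factor, at -201 to -192. The Egr1 window held 2 CArG boxes, CCATATTAGG at -105 to -96 and CCATATATGG at -83 to -74, and 2 CRE cores on the other strand, at -135 to -131 and -66 to -62. A CArG box was found in 2 of the 4 windows against 1.5% of 33469 rat promoter windows searched on both strands, a CRE core in 2 of 4 against 18.2%, an EGR motif in 1 of 4 against 4.29% and a TATA box in 1 of 4 against 12.9%. Neither the full CRE (TGACGTCA, 1.59% of windows, and overlapping its core) nor the AP-1 motif (TGANTCA, 6.34%) was found in any of the 4. The windows were rich in G and C, at 70.4% in Fosl2, 66.0% in Junb, 63.2% in Egr1 and 67.2% in Klf6, against a median of 51.2% over all windows. These matches describe the letters and were not tested for binding.

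After the study's quality limits (at least 1200 unique molecular identifiers, UMIs, and 500 genes per nucleus, and at most 5% mitochondrial UMIs), 40970 of 90461 barcodes were kept, with 6260 to 9246 nuclei per CON library and 3189 to 7893 per SAP library. The study reports fewer nuclei after these limits, so the set used here is not identical to its own. The summed UMIs ran from 11402966 to 28771508 in CON and from 5549260 to 19435288 in SAP. Mitochondrial UMIs made up 0.171 to 0.692% in CON and 0.691 to 1.97% in SAP, and 2 libraries (CON replicate 2 and SAP replicate 1) were deposited with barcodes down to 545 and 502 UMIs, the other 4 starting at 1000. Barcode names shared by libraries (5398) are serial numbers, and no count profile occurred in more than 1 library. The sum of 13 enterocyte markers was 625 to 2637 CPM (UMIs scaled to a common total in every sum) in CON and 2767 to 4032 CPM in SAP, with 12 of the 13 markers higher by mean, and the 10 proliferation markers summed to 523 to 750 CPM in CON and 135 to 555 CPM in SAP. The 8 neutrophil markers summed to 3.60 to 72.4 CPM in CON and 8.39 to 1074 CPM in SAP, with overlap. The member levels were therefore also read within classes and with class shares held fixed. In sums over many nuclei more cells of a type and more RNA per cell cannot be told apart.

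Over all nuclei of a library, the 8 members were all higher in SAP by the group means, with a median log2 fold change of 1.21 against 0.02 over the 19187 genes tested. Here and below, values given beside a log2 difference are CPM scaled by TMM, a normalization that sets aside genes with extreme ratios. Levels compared over classes and clusters, and values of classes that were not tested, are CPM without it. Among the AP-1 subunits, Fos stood at 25.1, 14.3 and 10.3 CPM in CON (replicates 1 to 3, in this order throughout) and at 41.5, 38.0 and 18 CPM in SAP. The third SAP library lay below the first CON library, so the groups overlapped, and the log2 difference was 0.97 (SE 0.44). For Fosl2 the values were 124, 147 and 142 CPM in CON and 182, 310 and 119 CPM in SAP, a log2 difference of 0.56 (SE 0.35) that rested on SAP replicate 2 and dropped to 0.12 without that library. Jun, a strong activator among the Jun proteins, read 29.0, 20.6 and 40.5 CPM in CON and 80.1, 78.0 and 61.4 CPM in SAP. The lowest SAP library was above the highest CON library, with a log2 difference of 1.28 (SE 0.30). Junb, which can restrain Jun, read 46.8, 48.2 and 83.5 CPM in CON and 139, 177 and 157 CPM in SAP (log2 difference 1.41, SE 0.29), again without overlap.

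Of the zinc finger factors, Egr1 had the largest difference of the 8 members, from 10.4, 23.4 and 21.3 CPM in CON to 97.8, 42.8 and 76.0 CPM in SAP, a log2 difference of 1.97 (SE 0.42) or 3.93-fold. Klf6 went from 59.2, 54.2 and 73.0 CPM in CON to 132, 184 and 95.7 CPM in SAP (log2 difference 1.15, SE 0.29). The CON and SAP libraries did not overlap for either gene. Atf3 read 15.1, 8.95 and 13.2 CPM in CON and 49.7, 19.2 and 21.6 CPM in SAP, a log2 difference of 1.27 (SE 0.43) in which SAP replicate 1 stood far above the other two SAP libraries. Without SAP replicate 1 it was 0.76. For Ier3 the values were 23.1, 18.9 and 12.4 CPM in CON and 43.8, 25.6 and 40.3 CPM in SAP, with a log2 difference of 1.01 (SE 0.34) and no overlap.

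**Figure D1:**
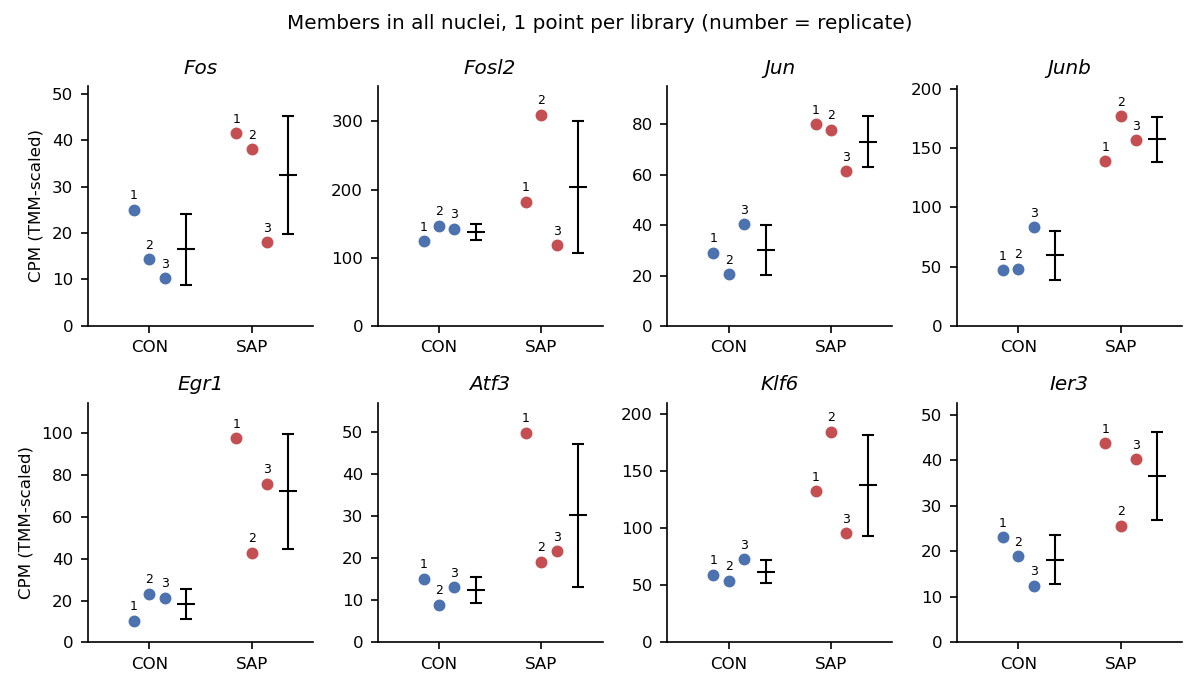
Level of each member in all nuclei (vertical axes, TMM-scaled CPM, each starting at 0) in the 3 CON and 3 SAP libraries, with the replicate number at each point and the group mean ± SD beside the points. The SAP points lie above all CON points for Jun, Junb, Egr1, Atf3, Klf6 and Ier3, and the groups overlap for Fos and Fosl2.

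None of the 8 members passed the threshold of edgeR's quasi-likelihood test (Benjamini-Hochberg adjusted p under 0.05 over all genes and a log2 fold change of at least 0.5), with adjusted p from 0.545 to 0.72. No gene of the 19187 was called (0%). At an unadjusted p under 0.05, 6 members were higher in SAP, against 3.97% of all genes, and 6 members were higher without overlap between the groups, against 4.9%. Being higher by fold change alone held for 52.2% of all genes. Because the members were chosen with earlier results of these data known, their distance from all genes may be partly fixed by the choice. By rank of the unadjusted p among the 19187 genes, Junb was 30, Egr1 38, Jun 77, Klf6 123, Ier3 614, Atf3 650, Fos 1862 and Fosl2 3791. DESeq2, the tool of the study, called 4 members on the same sums, with an adjusted p of 0.0239 for Jun, 0.0105 for Junb, 0.00354 for Egr1 and 0.0451 for Klf6, where it called 0.641% of all genes as higher.

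Within the pair of libraries with low barcode limits (CON replicate 2 and SAP replicate 1) and within the other 4, all 8 members were higher in SAP. The log2 differences of mean levels were 2.07 and 1.94 for Egr1, 1.53 and 1.41 for Junb, and 1.96 and 1.01 for Jun. Atf3 differed most between these settings, at 2.47 in the low-limit pair and 0.53 in the other 4. A limit of 1% mitochondrial UMIs left 6642, 6176 and 7924 nuclei in CON and 384, 1908 and 6825 in SAP. It moved Atf3 to 0.44, while the other 7 members lay between 0.54 and 1.80.

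Members were also counted as the share of nuclei with at least 1 UMI, after each nucleus was thinned to 1200 UMIs so that depth could not set the share. No class of the ileum is known to lack these genes, so no background share could be set beside these values. Junb was seen in 4.65, 5.43 and 10.3% of nuclei in CON and 11.9, 17.6 and 19.9% in SAP (unthinned means 11.4% and 25.2%). Egr1 was seen in 0.98, 2.46 and 2.21% in CON and 7.40, 4.46 and 9.19% in SAP (unthinned means 3.26% and 10.5%). For both genes every SAP library was above every CON library. The group means were 1.66 and 3.37% for Fos, 3.2 and 7.13% for Jun, 1.36 and 2.48% for Atf3, 6.98 and 13.5% for Klf6 and 2.16 and 4.15% for Ier3 in CON and SAP, also without overlap. Fosl2 was seen in 15.4% and 19.7% of nuclei, and its groups overlapped. Such shares were not computed for genes other than the members, so how many genes separate the groups on this measure is not known.

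Several members were detected in the same nucleus more often in SAP. In thinned nuclei, 2 or more of the 8 were present in 4.13, 5.00 and 8.45% of CON nuclei and in 13.6, 20.7 and 16.9% of SAP nuclei, and 3 or more in 0.97% ± 0.77 and 4.81% ± 0.64 (SD, n = 3 each). Every SAP library was above every CON library on both counts. The share of nuclei with any member was also higher, at 32.4% in CON and 50.2% in SAP by the group means, and its part in the joint counts was not tested. For 17 of the 28 pairs of members, each gene was seen more often in nuclei with the other than in nuclei without it in 6 of 6 libraries, and pairs of other genes were not examined. Jun was found in 18.8% of nuclei with Atf3 and in 5.28% of those without (medians of 6 libraries), Klf6 in 25.9% and 9.40%, and Junb in 22.9% and 10.8%. Nuclei with Fos held Junb in 23.5% of cases against 10.8%. Ier3 stood outside this pattern, with 1 of its 7 pairs higher in 6 of 6 libraries. Pairs over all nuclei mix classes of different levels, and within enterocyte-like nuclei 10 of the 28 were higher in 6 of 6 libraries. In stem/TA-like nuclei 0 of the 28 were, where a member was seen in as few as 3 nuclei of a library.

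Nuclei were clustered without the 8 members and without the related gene lists, and clusters were called "-like" from marker genes. Over 16 classes or unnamed clusters, the levels (mean CPM over 6 libraries, without TMM) are described without a test. Enterocyte-like nuclei, the absorptive cells of the villus, had the highest mean for Fos (46.7 ± 21.5 CPM, SD, n = 6), Fosl2 (270 ± 81.3), Jun (123 ± 87.8), Junb (185 ± 109), Atf3 (58.0 ± 47.7) and Klf6 (191 ± 99.7). In all 6 libraries, Fosl2 was above the next class, goblet-like nuclei at 192 CPM, although the ranges over libraries overlapped. Jun in enterocyte-like nuclei ranged from 39.4 to 280 CPM over libraries and was above the next class, SMC-like (smooth muscle) nuclei at 74.0 CPM, in 4 of 6. Junb was next highest in SMC-like nuclei at 162 CPM, and Klf6 in macrophage-like nuclei at 127 CPM. Atf3 did not lead as clearly in CON. In CON replicates 1 and 2 its TMM-scaled level was higher in cluster 13, an unnamed non-epithelial cluster, than in enterocyte-like clusters 3 and 5. Cluster 13 held 68 and 39 nuclei in these libraries. Atf3 was lowest in stem/TA-like (stem and transit-amplifying) nuclei at 5.25 CPM, and Klf6 there too at 59.8 CPM.

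Over these 16 classes, Egr1 and Ier3 had their highest means outside the epithelium. Egr1 was highest in fibroblast-like nuclei at 87.8 ± 40.9 CPM, followed by SMC-like at 75.5 CPM and NAC-like (neural and glial) nuclei at 73.7 CPM. These neighbours did not separate, since the SD within each was 40.9 to 84.4 CPM. SAP replicate 1 held only 10 NAC-like nuclei. Ier3 was highest in SMC-like nuclei at 68.3 ± 44.0 CPM and above fibroblast-like nuclei, at 43.9 CPM, in all 6 libraries. The lowest level was in B-like nuclei for Fos (8.71 CPM), Jun (21.3 CPM) and Egr1 (22.7 CPM), in NAC-like nuclei for Fosl2 and Junb, and in tuft-like nuclei for Ier3 (15.1 CPM). Each gene's highest class was named the same with the CON libraries alone, with the median over libraries and with each library left out. It changed for Egr1 with the SAP libraries alone (to NAC-like), with the 1% mitochondrial limit (to SMC-like) and without integration (to enterocyte-like), and for Junb at a Leiden resolution of 0.4 (to SMC-like). Neutrophil-like nuclei, 133 in all, were too few to be among the 16 classes. Summed over libraries, they held Junb at 414, Klf6 at 214, Ier3 at 194 and Egr1 at 191 CPM. These lay above the highest class mean of each gene, and most of their UMIs came from SAP libraries. The other members were below it.

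**Figure D2:**
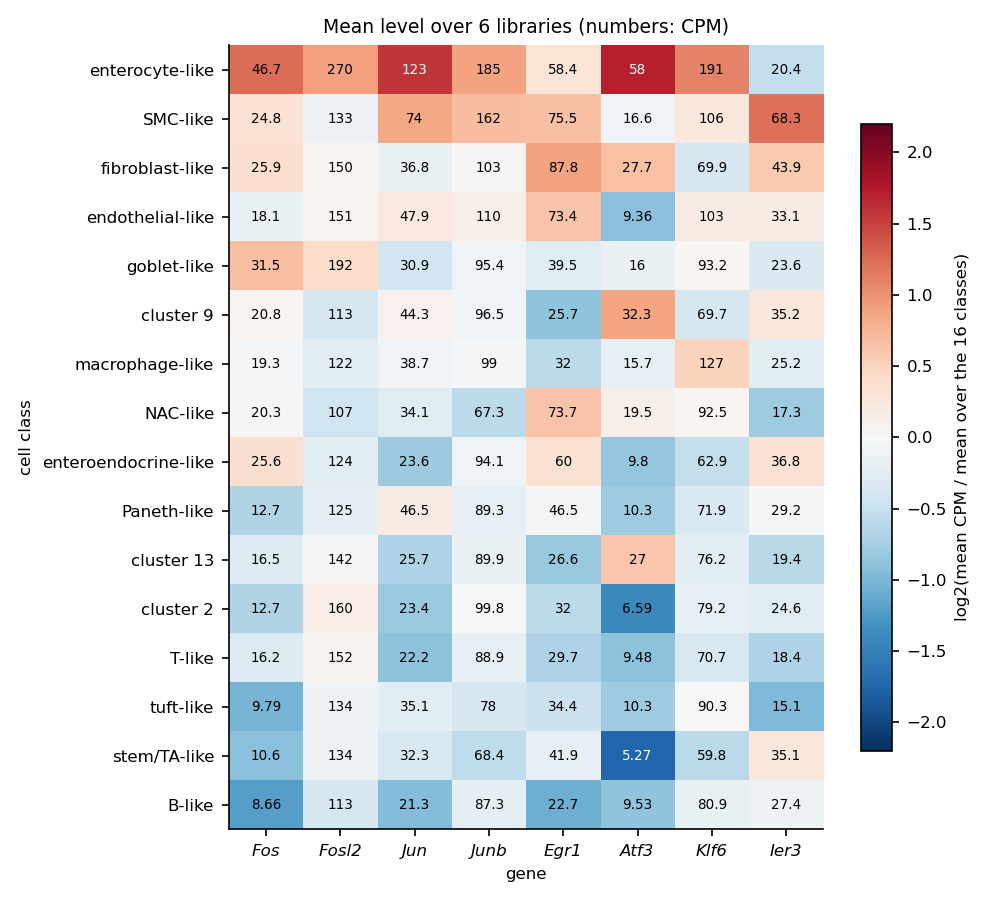
Mean level over 6 libraries of each member (columns) in 16 classes or unnamed clusters (rows), with the mean CPM printed in each cell. Colours show log2 of that mean CPM over the gene's own mean across the 16 classes, so they do not compare levels between genes. Among these rows, enterocyte-like nuclei hold the highest value for 6 of the 8 members, and fibroblast-like and SMC-like nuclei hold the highest for Egr1 and Ier3. Neutrophil-like nuclei are not shown.

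Within the enterocyte-like class, the levels were concentrated in cluster 5, 2648 nuclei led by Ly6m, Apoa4, Samd9, Cyp3a9, Isg15, Slc28a2 and Ada. Apoa4 and Ada are known as genes of villus enterocytes and Isg15 as an interferon-stimulated gene. Over the 6 libraries together, cluster 5 held 6.55% of all UMIs but 43.0% of all Atf3 UMIs and 38.1% of Jun UMIs. It held 22.9% of Klf6, 20.9% of Fos, 19.98% of Junb, 18.01% of Fosl2 and 17.2% of Egr1 UMIs. Its share of Ier3, at 5.64%, was near its share of all UMIs. The shares varied between libraries. For Atf3, cluster 5 held 21 of 340, 11 of 105 and 155 of 319 UMIs in CON. In SAP it held 169 of 234, 113 of 271 and 312 of 546. Compared were 6 epithelial clusters, namely 0 and 7 of the stem/TA-like class, 3, 5 and 15 of the enterocyte-like class and the unnamed cluster 2. Among these, Atf3 averaged 124 ± 108 CPM in cluster 5 (SD, n = 6, without TMM) and at most 10.9 CPM elsewhere. Jun averaged 258 ± 152 CPM in cluster 5, against at most 64.1 CPM. In CON replicate 1, Atf3 was at 24.9 CPM in cluster 5 and 18.5 CPM in cluster 3. Cluster 5 was the highest of the 6 in 6 of 6 libraries for Fos, Fosl2, Jun, Junb and Atf3, in 5 for Klf6, in 4 for Egr1 and in 2 for Ier3. Egr1 averaged 103 ± 74.9 CPM (SD, n = 6) in cluster 5, above its mean in fibroblast-like nuclei. Since the cluster was made from the same nuclei, these levels are a description.

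Cluster 5 made up 2.66, 3.61 and 5.02% of all nuclei in CON and 10.2, 16.1 and 5.92% in SAP. Within cluster 5 the members were again higher in SAP by the fit, and 1 of 8 did not overlap, where 6.77% of 9007 genes were higher without overlap and 52% had a fold change above 0. That member was Klf6, at 111, 73.7 and 303 CPM in CON and 416, 343 and 576 CPM in SAP (log2 difference 1.44, SE 0.49). Jun read 137, 87.7 and 304 CPM in CON and 313, 244 and 544 CPM in SAP (1.05, SE 0.47). Atf3 read 28.5, 21.9 and 137 CPM in CON and 321, 52.7 and 246 CPM in SAP (1.65, SE 0.75). CON replicate 3 reached the SAP range for Jun and Atf3. Without CON replicate 3 the differences in cluster 5 were 3.01 for Atf3, 1.72 for Jun and 2.27 for Klf6, and without SAP replicate 3 that of Jun was 0.64. The stem/TA-like cluster 0, led by the mitotic genes Hjurp, Plk1 and Ncaph, had lower median levels than cluster 5 for every member but Ier3 (median 146% of the cluster 5 level over 6 libraries), and the fitted difference was above 0 for all 8 (51.5% of 12402 genes). Junb there read 26.8, 27.9 and 56.2 CPM in CON and 65.9, 131 and 137 CPM in SAP (1.6, SE 0.40), and 5 of 8 members were higher without overlap, against 6.35% of genes. Fos was among these and passed the count filter through its SAP level. It read 3.51, 8.10 and 3.66 CPM in CON and 22.4, 11.6 and 8.80 CPM in SAP. In cluster 3, an enterocyte-like cluster led by Slc5a12, Egr1 read 11.4, 7.72 and 9.80 CPM in CON and 67.3, 33.3 and 45.9 CPM in SAP (2.29, SE 0.37), whereas Atf3 read 23.5, 11.1 and 8.49 CPM in CON and 7.83, 8.63 and 9.17 CPM in SAP (-0.74, SE 0.48). The other 7 members were above 0 there (49.7% of 10039 genes), and 4 of 8 were higher without overlap, against 6.94% of genes. In cluster 15, also enterocyte-like, 5 of the 6 members tested were above 0 (46.2% of 5732 genes), Fos was at -0.03 (SE 0.55), the median was 0.52, none had an unadjusted p under 0.05 and Jun alone was higher without overlap (2.58% of genes). In cluster 7, of the stem/TA-like class, all 7 tested were above 0 (50.6% of 9066 genes), with a median of 1.13, and Jun, Junb and Ier3 were higher without overlap (6.61% of genes). By edgeR no member was called in clusters 0, 3 and 15 (0% of genes), 5 (0.0111%) or 7 (0.0882%), with the lowest adjusted p at 0.165, for Egr1 in cluster 3. DESeq2 called Egr1 in cluster 3 (adjusted p 0.000578, with 0.448% of genes called as higher) and Junb in cluster 0 (0.0404, with 0.532%), and no member in clusters 5, 7 and 15, where it called 0.0666, 0.32 and 0.0523% of genes as higher.

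The levels outside cluster 5 were set beside those of Apoa4 and Ada, leading genes of that cluster that proliferating nuclei are not known for. Cluster 0 held Apoa4 at a median of 1.91% of its cluster 5 level (0.443 to 14.97% over libraries) and Ada at 3.34% (2.76 to 27.4%). Jun was at 12.3% (6.35 to 13.8%), Junb at 22.9% (17.3 to 33.8%), Klf6 at 26.8% and Atf3 at 7.23% (1.29 to 23.9%). SAP replicate 2 had the highest value of both Apoa4 and Ada. Within the same library, Junb, Klf6, Fosl2 and Ier3 were above both leading genes in 6 of 6 libraries, Jun, Fos and Egr1 in 5 and Atf3 in 2. Leading genes were ranked by their level in cluster 5 over that in all other nuclei of these data. Their low level in cluster 0 was therefore partly fixed by the choice, and the comparison cannot show where the member UMIs of cluster 0 came from. The part of RNA released from other nuclei in the levels of cluster 0 was not tested.

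**Figure D3:**
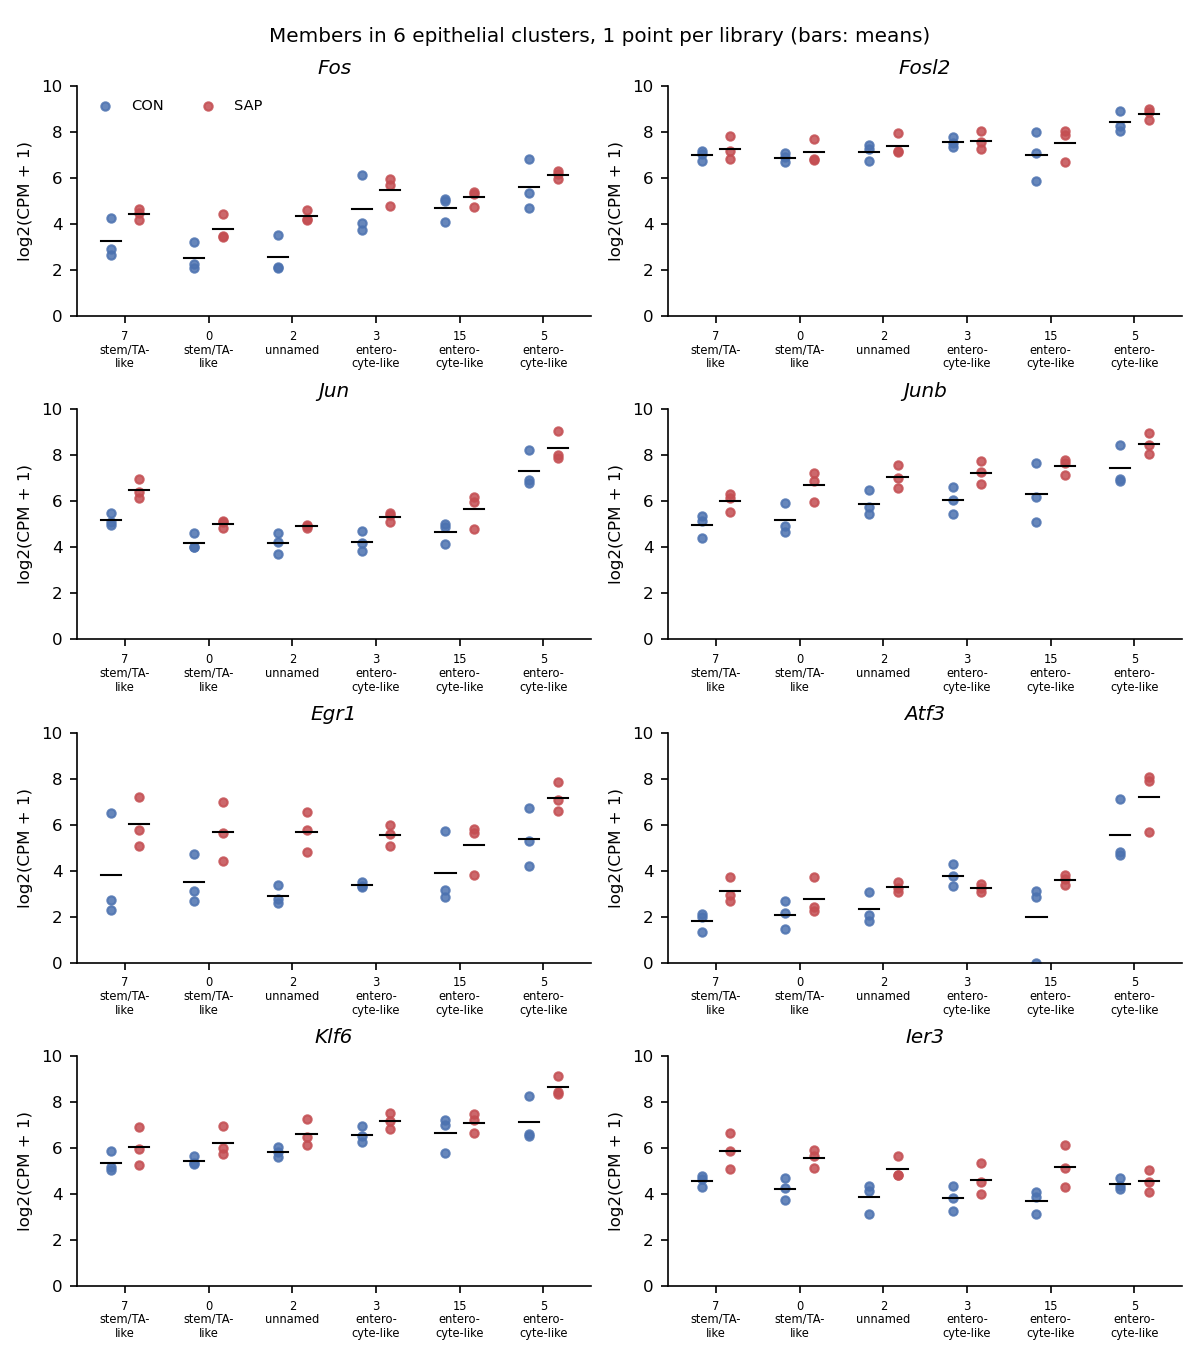
Level of each member, as log2(CPM + 1), in 6 epithelial clusters ordered from stem/TA-like to enterocyte-like, with 1 point per library and a bar at the mean of the log2 values of each group. Cluster 5 has the highest points for Jun and Atf3, and in cluster 2 the SAP points for Egr1 lie above all CON points.

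Epithelial and non-epithelial nuclei were summed apart. In epithelial nuclei all 8 members were higher (50.1% of 16837 genes were), their median log2 fold change was 1.30, and 6 did not overlap, against 6.79% of genes. No gene was called (0%), with adjusted p of 0.389 to 0.487 for the members and 7 members at an unadjusted p under 0.05. DESeq2 called 5 members (Jun, Junb, Egr1, Atf3 and Klf6) and 1.15% of genes as higher. In non-epithelial nuclei all 8 were higher (52% of 17013 genes were), the median was 0.95, and 5 did not overlap, against 4.7% of genes. None was called there either (0%), with adjusted p of 0.628 to 0.952 and 5 members at an unadjusted p under 0.05, while DESeq2 called Junb and Egr1 and 0.276% of genes as higher.

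The SAP effects of Fos and Atf3 lay furthest apart between the compartments. Fos read 24.7, 12.9 and 10.2 CPM in CON and 41.1, 42.2 and 23.1 CPM in SAP in epithelial nuclei, against 25.1, 17.4 and 12.7 CPM and 31.2, 22.2 and 15.4 CPM in non-epithelial nuclei. The difference of the SAP effects, tested as an interaction with the library as a block, was 0.91 on the log2 scale for Fos (SE 0.25), with an adjusted p of 0.758 by edgeR. It was 0.14 after the sums were thinned to the smallest total, and 0.78 to 1.13 with 1 library left out at a time. Atf3 gave 0.78 (SE 0.38, adjusted p 0.853 by edgeR), Jun 0.46, Egr1 0.44, Klf6 0.32, Fosl2 0.17, Junb 0.03 and Ier3 -0.11. With 1 library left out at a time, Atf3 ranged from 0.38 to 1.21, Jun from 0.21 to 0.74, Egr1 from 0.15 to 0.80, Klf6 from 0.15 to 0.57 and Fosl2 from 0.01 to 0.30, the lowest value of each being without SAP replicate 3. Of 18713 genes, 1 was called in this test (0.00534%), St8sia6, and 5.93% had an unadjusted p under 0.05, Fos among them, so no member was shown to respond differently in the 2 compartments. Without cluster 5 the difference was 0.83 for Fos and -0.20 for Atf3, -0.09 for Jun, -0.08 for Klf6 and -0.05 for Fosl2.

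Leaving out cluster 5 also moved the SAP differences over all nuclei, by unequal amounts. Atf3 went from 1.27 to 0.32 and Jun from 1.28 to 0.91, whereas Egr1 was at 1.83, Junb at 1.29 and Ier3 at 1.06 without it. With the share of every class held fixed the 8 members lay between 0.33 (Fosl2) and 1.81 (Egr1), and with the share of every cluster held fixed between 0.27 (Fosl2) and 1.75 (Egr1), Atf3 being at 0.86. All of these values were above 0 and none was called.

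The members were then tested in each class with at least 10 nuclei in every library. In 16 classes, 33 tests of a member were not made because it had too few counts, and the 95 made include members that passed the filter through their SAP level. Some classes were small. SAP replicates 1 and 2 held 22 and 37 macrophage-like, 28 and 36 B-like and 29 and 61 fibroblast-like nuclei. CON replicate 2 held 70, 41 and 56 of these. Single CPM values in such classes rest on few UMIs. In these, 93 differences were above 0 (50.7% of all genes), 45 were higher in SAP without overlap (6% of all genes) and 0 were lower without overlap. At an unadjusted p under 0.05 there were 48, all higher (4.21% of all genes), and by edgeR 0 were called (0.0159% of all genes), where DESeq2 called 7 (0.311% as higher). The smallest adjusted p was 0.0913, for Egr1 in SMC-like nuclei. The median over tested members ran from 0.59 in cluster 13 to 1.22 in stem/TA-like nuclei, while the median of all genes ran from -0.03 to 0.03.

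The largest of the 95 differences was that of Egr1 in cluster 2. Egr1 was low in CON there and passed the count filter through its SAP level, so it could be tested only because SAP was high. In this cluster, an unnamed epithelial cluster led by Pla2g4c, Bche and Slc26a3, it read 5.53, 8.66 and 5.53 CPM in CON and 60.7, 29.8 and 85.5 CPM in SAP, a log2 difference of 3.14 (SE 0.46, adjusted p 0.143 by edgeR). In SMC-like nuclei it read 13.8, 33.1 and 46.2 CPM in CON and 136, 160 and 101 CPM in SAP (1.99, SE 0.41). Every SAP library was above every CON library in both. Over the 12 classes in which Egr1 was tested it was higher without overlap in 8, against 6% of all gene tests in the class fits. Fibroblast-like nuclei, where its level was highest, gave the smallest difference, 0.47, from 85.2, 90.7 and 76.5 CPM in CON and 174, 37.2 and 151 CPM in SAP, with SAP replicate 2 below the CON libraries.

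The Jun family followed. Of all gene tests in the class fits, 50.7% were higher and 6% were higher without overlap. Junb was higher in 15 of 15 classes and did not overlap in 9. In macrophage-like nuclei, for example, it read 58.9, 34.3 and 81.6 CPM in CON and 105, 166 and 232 CPM in SAP (1.58, SE 0.39). In tuft-like nuclei, the chemosensory cells, it read 39.7, 30.0 and 58.4 CPM in CON and 79.0, 149 and 154 CPM in SAP (1.58, SE 0.36), and in B-like nuclei 56.5, 59.7 and 61.9 CPM against 156, 133 and 153 CPM (1.30, SE 0.36). Jun was higher in 12 of 13 classes and did not overlap in 11, the exception in direction being fibroblast-like nuclei at 37.0, 22.7 and 78.2 CPM in CON and 0, 55.8 and 54.1 CPM in SAP (-0.14, SE 0.56). In T-like nuclei Jun read 12.2, 8.79 and 16.7 CPM in CON and 16.9, 42.6 and 38.7 CPM in SAP (1.44, SE 0.41).

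Klf6 was higher in 15 of 15 classes (50.7% of all gene tests were) and did not overlap in 8 (6% of all gene tests were higher without overlap). Its log2 difference ran from 0.36 in cluster 13 to 1.21 in fibroblast-like nuclei, where it read 63.0, 22.7 and 45.9 CPM in CON and 174, 92.9 and 99.5 CPM in SAP. Ier3 was higher in 10 of 10 classes and did not overlap in 5, with the largest difference in stem/TA-like nuclei, at 27.0, 18.5 and 13.1 CPM in CON and 54.4, 36.9 and 61.9 CPM in SAP (1.39, SE 0.34). Fos was tested in 8 classes and did not overlap in 3 (cluster 2, goblet-like and stem/TA-like), reading 29.9, 18.3 and 14.5 CPM in CON and 54.5, 47.3 and 31.5 CPM in SAP in goblet-like nuclei (1.04, SE 0.36). In cluster 2, Fos passed the count filter through its SAP level. Without TMM it read 10.7, 3.42 and 3.24 CPM in CON there and 17.2, 17.7 and 23.8 CPM in SAP. Fosl2 was higher in 15 of 15 classes but did not overlap in only 1, endothelial-like, a share near the 6% of all gene tests. Its differences ran from 0.07 to 0.72. Atf3 was tested in 7 classes, 6 of them higher, and overlapped in each. The exception was cluster 13, at 43.9, 29.8 and 17.6 CPM in CON and 36.3, 17.3 and 27.1 CPM in SAP.

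**Figure D4:**
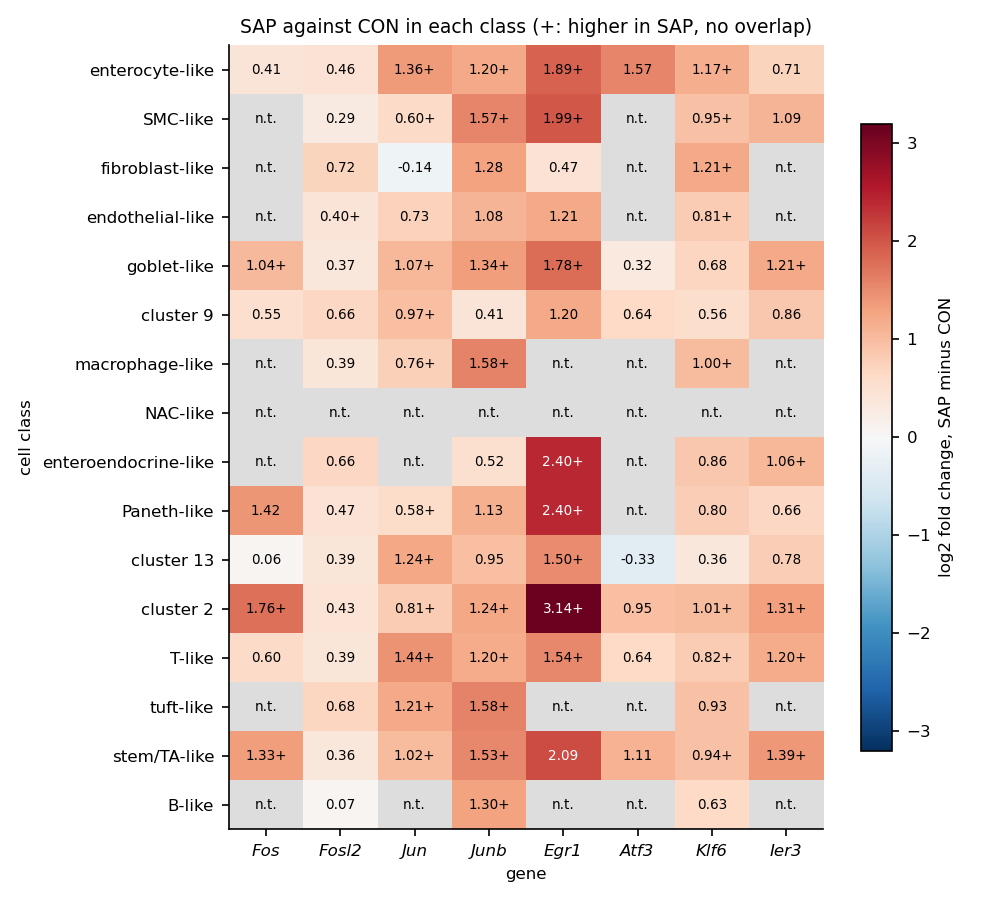
Log2 fold change of each member (columns), SAP minus CON, in each class or unnamed cluster (rows), with grey cells where the member had too few counts to be tested. Nearly all cells are above 0, with the largest value, 3.14, for Egr1 in cluster 2, and the 2 cells below 0 are Jun in fibroblast-like nuclei and Atf3 in cluster 13. Egr1 and Fos passed the count filter in cluster 2 through their SAP levels.

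Related genes were grouped into 6 lists and read from the all-nuclei fit, in which no gene of any list was called (0% of all genes). The lists too were chosen with earlier results of these data known, so their medians and counts are a description. In that fit 52.2% of all genes were higher and 4.9% were higher without overlap. The other AP-1 and CREB factors had a median log2 difference of 0.27 over 24 genes tested, with 18 higher, 6 lower and 6 higher without overlap. Maff, a small Maf protein, read 3.70, 3.92 and 6.77 CPM in CON and 17, 18.4 and 14.1 CPM in SAP (1.78), Mafk differed by 1.04 and Atf4, of the integrated stress response, by 0.66. The other early transcription factors had a median of 0.45 over 21 genes, 15 higher, with 7 not overlapping. They were led by the C/EBP factors of the acute phase response, Cebpd (13.3 ± 1.3 CPM in CON and 41.4 ± 13.2 in SAP, SD, n = 3, log2 difference 1.63) and Cebpb (1.40), and by the clock-linked repressor Bhlhe40 (1.54).

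Feedback genes, which damp the early response, had a median of 0.60 over 36 genes, of which 29 were higher, 14 of them without overlap. Of all genes in this fit, 52.2% were higher and 4.9% were higher without overlap. Zfp36, whose protein destabilizes mRNAs including those of early genes, read 27.1, 22.1 and 32.4 CPM in CON and 88.9, 136 and 54.9 CPM in SAP (1.78). Gadd45a, a growth arrest gene, differed by 1.22 and Ier5, another early response gene, by 1.6. Known AP-1 targets had a median of 1.24 over 28 genes, 23 higher and 9 without overlap, led by the EGF-like ligand Hbegf (1.70, 5.86 ± 2.1 CPM in CON and 19.2 ± 2.8 in SAP), the prostaglandin synthase Ptgs2 (2.2, both groups under 5 CPM) and the heme oxygenase Hmox1 (2.49). Kinases and factors upstream had a median of 0.08 over 38 genes, with 22 higher and 16 lower. Of these genes 1 was higher without overlap and 4 were lower without overlap, the latter a share near the 9.06% of all genes. The stress kinase Map3k20 read 235, 300 and 200 CPM in CON and 165, 89.4 and 172 CPM in SAP (-0.79), Map2k6 differed by -0.47 and Egfr by 0.68 with overlap. Heat shock genes had a median of -0.09 over 17 genes, 8 higher and 9 lower, with 2 higher and 1 lower without overlap. Their first 3 by p were Hspa1a (1.59, with overlap), Dnajb4 (-0.74) and Dnajb1 (1.26).

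**Figure D5:**
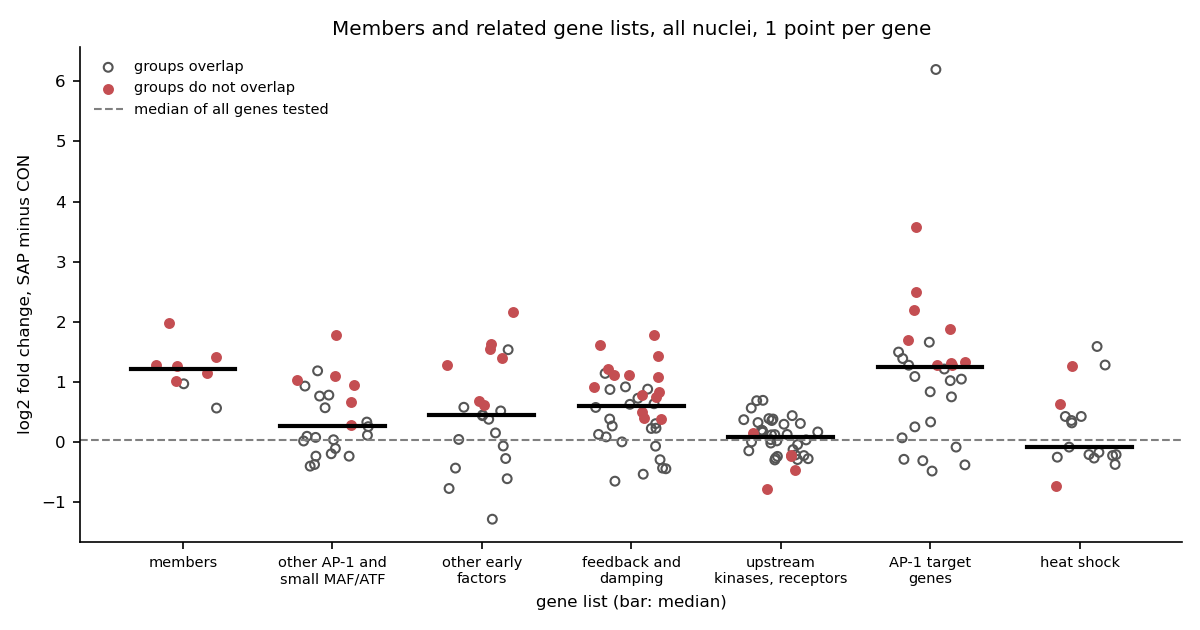
Log2 fold change, SAP minus CON, of every gene tested in all nuclei for the 8 members and 6 related lists, with 1 point per gene, a bar at the list median and a dashed line at the median of all genes. The members and the AP-1 targets have medians of 1.21 and 1.24, while upstream genes and heat shock genes lie near the line.

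The genes whose level followed a member most closely over the 16 class means (Pearson r of log2(CPM + 1), 11318 genes with a mean of at least 10 CPM, described without a test because the classes share libraries) are given by name. Zfp36 was among the 3 nearest of Junb (r = 0.875) and of Klf6 (0.854). The nearest gene was Tp53inp2 for Fos (0.868), Net1 for Fosl2 (0.932), Gapdh for Jun (0.853), Plat for Egr1 (0.808), Zfand2a for Atf3 (0.840), Lgmn for Klf6 (0.880) and Arrdc3 for Ier3 (0.831). After the mean of each class was taken off, which leaves the variation between libraries, the nearest gene was Ptprg for Fosl2 (0.847), Mknk1 for Jun (0.695), Eif1a for Junb (0.796), Lgmn for Egr1 (0.661), Spns2 for Klf6 (0.774) and Psmb8 for Ier3 (0.548), and Fos and Atf3 were below the minimum level of 20 CPM. Among the members themselves Klf6 was nearest to Fosl2 (0.56), Egr1 (0.49) and Jun (0.41).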

How the data were processed

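Nuclei of 6 ilea (3 CON, 3 SAP) were measured by droplet single-nucleus RNA sequencing, and the deposited values are raw counts of UMIs per gene and barcode that the authors made with dnbc4tools on mRatBN7.2. Nuclei were filtered by the limits of the study, log-normalized, integrated by an implementation of the Harmony algorithm and clustered (Leiden resolution 0.8) in scanpy 1.11.5, with the members and related lists left out of the variable genes. Scrublet's automatic threshold marked no nucleus and so was not informative, and the nuclei with the 5% highest scores were left out as an alternative. UMIs were summed per library and tested with edgeR 4.0.16 (filterByExpr, TMM, quasi-likelihood test) over all genes, and with DESeq2 1.42.0 as an alternative; class shares were held fixed with limma 3.58.1 on log2(CPM + 1). The fits were also run on simulated data, and the outcome is not given here. Named genes are the 8 members, the 3 genes of each list with the smallest unadjusted p, and the 3 genes nearest to each member by correlation. The members and lists were chosen with earlier results of these data known. Leaving out cluster 5, holding cluster shares fixed and fitting single clusters were chosen after seeing the data. Labels do not say that replicate numbers pair rats. Deviations of same-numbered CON and SAP libraries correlated at 0.577, 0.183 and 0.524, those of other numbers at -0.616 to 0.144, and the fit with the number as a block was an alternative. Intervals cover counting error only. All libraries carry the same batch label. Classes with fewer than 10 nuclei in a library were given as counts without a test. Part of the comparison of the members with genes of similar level is not reported here.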

Additional observations from a re-analysis of the deposited data

Results flagged for a closer look

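Neutrophil-like nuclei were outside the class tests because SAP replicate 2 held 6 of them (10, 11 and 34 in the CON libraries 1 to 3, and 28, 6 and 44 in the SAP libraries). For 5 members, the Poisson intervals of counts pooled over the libraries of a group were higher in SAP without overlap. Such intervals do not treat rats as replicates. They were computed for the members alone, so how many genes separate the groups in this way is not known. Ier3 had 0 UMIs in each CON library and 18, 0 and 49 UMIs in the SAP libraries. That was 274 CPM over the SAP libraries (95% exact Poisson interval 212 to 348), where the upper limit over the CON libraries was 36.4 CPM. The SAP value was 9.25 times the level that 3 counts over the CON group would give. Egr1 had 0, 0 and 1 UMIs in CON and 46, 0 and 19 in SAP, or 9.87 and 266 CPM. Junb had 0, 2 and 9 UMIs in CON and 48, 2 and 82 in SAP, or 109 and 540 CPM. Jun had 1, 0 and 1 UMIs in CON and 18, 1 and 11 in SAP, or 19.7 and 123 CPM, and Fosl2 had 2, 2 and 5 in CON and 20, 8 and 35 in SAP, or 88.9 and 258 CPM. For Ier3 and Egr1 nearly all UMIs came from SAP replicates 1 and 3, since SAP replicate 2 had 0 of both. No member passed the filter on low counts in a fit on these nuclei, so no test was made. In fat-like nuclei, Ier3 had 0 UMIs in each CON library and 2, 2 and 2 UMIs in the SAP libraries, or 79.6 CPM (95% exact Poisson interval 29.2 to 173). There were 25, 21 and 20 such nuclei in CON and 6, 6 and 21 in SAP. By library, the SAP values were 236, 112 and 40.7 CPM. These values cover counting error only, and differences between rats were not tested.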

How the results depend on the processing

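Of 1701 values under alternatives for 99 results, 1628 were taken as the same. For a fold change this meant the same direction and side of the threshold, and for a count or share an equal or similar value. Of the rest, 14 counts moved further, 37 fold changes passed the threshold only under the alternative, and 22 changed sign, none of these called. DESeq2 called 4 members in all nuclei, 5 in epithelial and 2 in non-epithelial nuclei, 7 in the class fits, 1 each in clusters 0 and 3, and 1, 3, 5 and 6 genes of the other AP-1, other early, feedback and AP-1 target lists, where edgeR called 0. Keeping every gene with at least 1 count gave 12 calls in the class fits and 1 in the interaction, thinning left 3 members without overlap in non-epithelial nuclei, and leaving out 1 library gave 0 to 2 calls in the class fits. The matching shares of all genes were not tallied under these settings, so these counts cannot be set against all genes. The difference between epithelial and non-epithelial nuclei changed sign for Junb when thinned (-0.10), without high doublet scores (-0.0474), at a Leiden resolution of 0.4 (-0.0136), without integration (-0.10), without cluster 5 (-0.15) and without single libraries (-0.19 to 0.40), for Egr1 without integration (-0.0721), for Ier3 at the 1% mitochondrial limit (0.0520) and without single libraries (-0.36 to 0.37), and without cluster 5 for Fosl2 (-0.0475), Jun (-0.0902), Atf3 (-0.20) and Klf6 (-0.0818). Atf3 in non-epithelial nuclei was -0.0869 at the 1% limit and, in cluster 13, 0.10 with the replicate block and -0.72 to 0.23 without single libraries. Leaving out 1 library also turned Egr1 (-0.11 to 0.90) and Jun (-0.32 to 0.0786) in fibroblast-like nuclei, Fos in cluster 5 (-0.13 to 1.30) and Fosl2 in cluster 0 (-0.11 to 0.58). The cause was not tested in any of these. With the replicate block, pairing libraries by number, 0 members were called in all nuclei (adjusted p 0.334 to 0.497 by edgeR), and it changed no other call. Depth limits Fos and Atf3, which fell under the filter in many classes.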
